A study of Mus musculus with 36 samples.

Results

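Pitx3, 1600010M07Rik, Usp2 and Wee1 are 4 of the 53715 gene identifiers counted in mouse liver, and are grouped here as genes that follow the circadian clock. They were chosen from measured values in these same libraries, namely their relation to the clock genes Dbp and Arntl and the difference between the 2 tomato diets, so those values are given below as a description and support nothing by themselves. Only Pitx3 and 1600010M07Rik had any count, and both passed the filter on low counts that 14068 genes passed. Usp2 and Wee1 were listed at 0 in all 36 libraries, so no such relation or difference was measured for them.

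The livers came from male C57BL/6 mice aged 10 weeks, with no genetic alteration named in the labels. All mice were assigned to diets at 4 weeks of age and fed for 6 weeks. The 12 Control mice received AIN93G, a purified rodent diet, while 12 Red and 12 Tangerine mice received a diet holding 10% by weight of red or of tangerine tomato powder. Each library is one liver and is named below by its diet and mouse number. The labels used here give no hour of collection and no feeding state.

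In the liver clock, a heterodimer of CLOCK (or NPAS2) with BMAL1, the product of Arntl, drives transcription of its own repressors, the Per and Cry genes, and of output factors such as Dbp. Arntl is in turn repressed by the REV-ERB receptors, so its transcript is high when that of Dbp is low. DBP, TEF and HLF, the PAR bZip factors, then drive rhythmic metabolic genes. Pitx3 encodes a paired-type homeodomain transcription factor known for its roles in the lens, in midbrain dopamine neurons and in skeletal muscle. Wee1 encodes the kinase that phosphorylates CDK1 and delays entry into mitosis, and Usp2 encodes a deubiquitinase; both are known rhythmic transcripts of mouse liver. 1600010M07Rik is an uncharacterised antisense transcript.

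The 250 bases before the RefSeq start of both members with counts are printed because Pitx3 and 1600010M07Rik varied in opposite directions across these livers. They are given 5' to 3' on the strand of the gene, build GRCm38.p6, at chr19:46148326-46148575 and chr7:110006647-110006896, both on the minus strand.
Pitx3: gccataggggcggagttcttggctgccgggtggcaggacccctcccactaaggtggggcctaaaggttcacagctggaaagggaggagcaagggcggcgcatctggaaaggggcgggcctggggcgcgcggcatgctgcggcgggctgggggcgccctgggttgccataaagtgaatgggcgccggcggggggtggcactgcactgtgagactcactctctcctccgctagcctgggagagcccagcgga
1600010M07Rik: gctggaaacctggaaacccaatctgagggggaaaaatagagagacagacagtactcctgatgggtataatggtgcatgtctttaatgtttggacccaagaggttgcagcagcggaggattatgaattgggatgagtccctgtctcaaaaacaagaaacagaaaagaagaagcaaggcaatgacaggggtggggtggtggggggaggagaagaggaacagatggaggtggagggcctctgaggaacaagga
The Pitx3 window had 68.8% G or C and that of 1600010M07Rik 49.6%, against a median of 52.4% over all 32851 windows of the RefSeq table. Motifs were searched on both strands and would stand in capitals: the E-boxes CACGTG and CACGTT, the D-box forms TTATGTAA and TTACGTAA, and the receptor half-site AGGTCA. No capital appears, because none of these letters was found in either window, nor in those of Usp2, Dbp and Arntl. Among all windows, 6.02% held CACGTG, 3.85% CACGTT, 0.819% TTATGTAA, 0.113% TTACGTAA and 14.0% AGGTCA, so their absence from a window of this length was common. The RefSeq table has an entry for 3 of the 4 members, all but Wee1. The 1600010M07Rik window lies inside the span that GENCODE release M21 gives the gene, not at the end of that span.

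The zeros of Usp2 and Wee1 were read against where the genes lie. Wee1 (ENSMUSG00000031016.9, chr7:110122046-110143286, plus strand, GRCm38) lies wholly inside the span of 1600010M07Rik (ENSMUSG00000101585.6, chr7:109998376-110151202, minus strand), which runs 7916 bases past the end of Wee1, and the 2 genes share no exon. Usp2 (ENSMUSG00000032010.15, chr9:44067021-44095627, plus strand) lies wholly inside Gm49380 (chr9:44066327-44113500, minus strand), which was also at 0 in all libraries. Among protein-coding genes whose span lies inside another annotated span, 1237 of 1246 (99.3%) were at 0 in all 36 libraries. Among those inside no other span, 3160 of 20644 (15.3%) were.

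The strand and the exons made little difference to this. Of coding genes inside a span on the opposite strand only, 792 of 800 (99%) were at 0, against 419 of 420 (99.8%) for the same strand only. Of those inside another span that share no exon with any other annotated gene, as with Wee1, 660 of 664 (99.4%) were at 0. Of those that share some exon, as with Usp2, 577 of 582 (99.1%) were. Inside 1600010M07Rik, all 8 annotated genes were at 0, among them Ipo7, which encodes a nuclear import receptor, and Zfp143, which encodes a zinc finger transcription factor. A level of 0 for Usp2 or Wee1 in this table therefore says nothing about whether the liver contained their transcripts, and neither gene can be compared between diets. Per3 and Ciart, repressors of the clock, were at 0 in the same position.

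**Figure D1:**
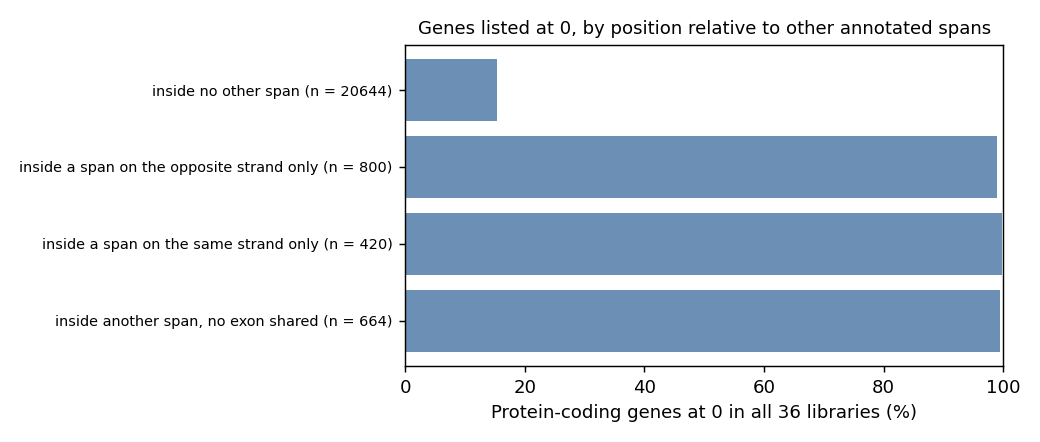
Share of protein-coding genes at 0 in all 36 libraries (x axis, percent), by where the gene lies relative to other annotated spans (y axis, with the number of genes); the last bar counts genes that are also in the bars above it. Genes inside another span were at 0 in 99% or more, on either strand and without a shared exon, against 15.3% of genes inside no other span.

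Totals ran from 21290169 to 33810573 counts per library (median 27002946), with like ranges in the 3 diets: 21290169 to 30607817 in Control, 22889519 to 33810573 in Red and 23355560 to 31872824 in Tangerine. Hepatocyte markers (6 of 6 genes with counts) summed to 2238707 to 3655193 counts in every library. Red 186 stood apart, with 5551 counts over 6 T cell markers against 40 to 123 elsewhere and 896 over skeletal muscle markers against 11 to 32, although the muscle gene Acta1 was at 0. Tangerine 216 stood apart with 320 counts over exocrine pancreas markers against at most 13 elsewhere. Fitted values below rest on all 36 libraries, and those without either library are given where they differ.

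Pitx3 (ENSMUSG00000025229.15, chr19:46135685-46148326, minus strand) had a median count of 91.5 per library and was above the Control median in every Red liver. In CPM, counts scaled to a common library size, it had a lowest, median and highest value of 0.418, 2.23 and 23.2 in Control. In Red these were 3.496, 6.84 and 22.5, and in Tangerine 0.440, 2.25 and 6.40. All 12 Red livers lay above the Control median, yet the ranges of Red and Control overlapped. Control 188, at 23.2 CPM, was the highest library of all, and the next Control livers, at 7.72 and 4.68 CPM, also lay above the lowest Red liver. Of the 12 Tangerine livers, 10 lay below every Red liver and 6 above the Control median.

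The spread within a diet was wide for this gene. The highest liver exceeded the lowest by 55.5-fold in Control, 14.5-fold in Tangerine and 6.43-fold in Red. The 2 lowest libraries, Control 159 and Tangerine 216, each had 12 counts, above the floor of 3 counts used here. The mean was 4.35 ± 6.27 CPM in Control, 9.36 ± 6.01 in Red and 2.34 ± 1.74 in Tangerine (SD, n = 12 each). The medians of Control and Tangerine were nearly equal while their means were not. In whole liver, fewer cells that carry a transcript and less of it per cell cannot be told apart.

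Red exceeded Control in Pitx3 by 1.10 on the log2 scale (SE 0.468), which did not pass edgeR's quasi-likelihood test after Benjamini-Hochberg adjustment over 14068 genes (adjusted p = 0.300). That call rested on 1 library: without Control 188, left out after the data were seen, the difference was 1.82 (adjusted p = 0.0479). With limma-voom and sample weights on all libraries it was 1.85 (adjusted p = 0.0117). In this contrast 21 of all genes passed the edgeR test on all libraries, a background of 0.149%. Without Control 188, 31 genes passed, and limma-voom called 1482 of 14068. Tangerine against Control gave -0.91 (SE 0.495, adjusted p = 0.936), which became -0.18 without Control 188; here 2 genes, 0.0142%, passed. Both contrasts share the 12 Control libraries. Each also shares its tomato libraries with Tangerine against Red, which helped to choose the members, so neither is independent of that choice.

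Tangerine against Red, the contrast that helped to choose the members, gave -2.005 for Pitx3 (SE 0.491) and 1.48 for 1600010M07Rik (SE 0.360), with 241 genes, 1.71%, past the threshold. With the log2 ratio of Dbp to Arntl as a covariate, the difference was -0.58 for Pitx3 and 0.11 for 1600010M07Rik. Since that ratio itself differed between these diets, the part of the diet and that of the clock state cannot be told apart. Without Tangerine 216 the values were -1.90 and 1.32, and without Red 186 they were -2.08 and 1.501.

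**Figure D2:**
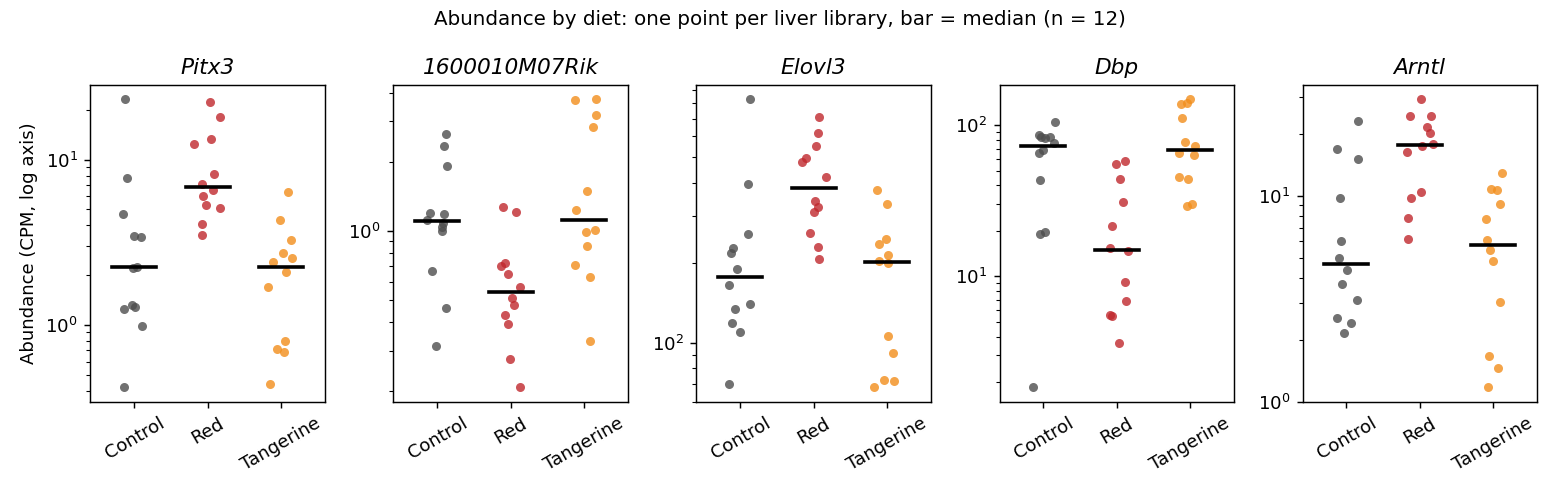
Abundance (CPM, log axis) of Pitx3, 1600010M07Rik, the Pitx3 neighbour Elovl3, and the clock genes Dbp and Arntl in 12 Control, 12 Red and 12 Tangerine livers; each point is a library and each bar a median. Pitx3, Elovl3 and Arntl have their highest median in Red, where 1600010M07Rik and Dbp have their lowest.

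**Figure D3:**
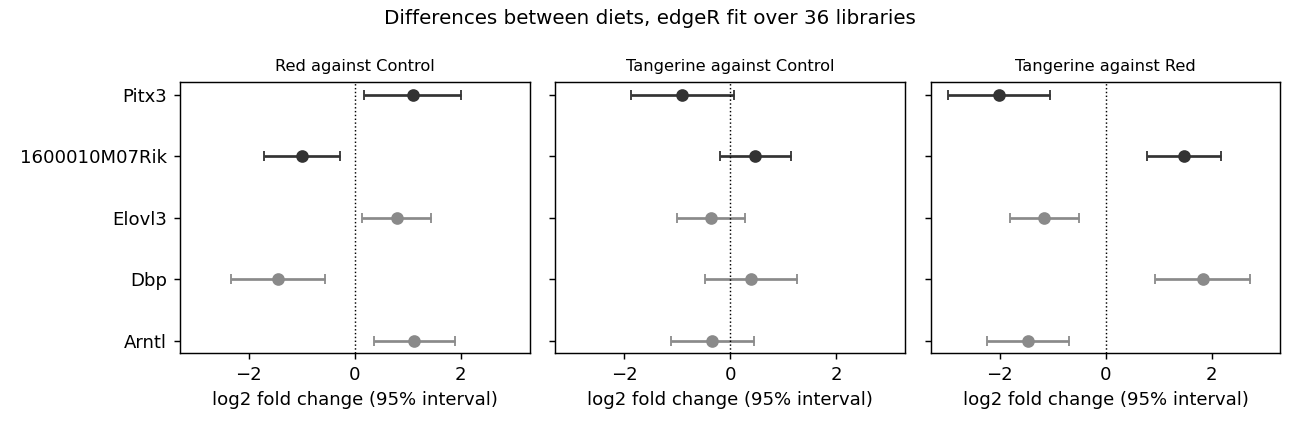
Difference between diets (x axis, log2 fold change with its 95% interval) for Pitx3 and 1600010M07Rik (dark) and for Elovl3, Dbp and Arntl (grey), from one edgeR fit over 36 libraries. The intervals are not adjusted for the number of genes tested. In Red against Control Pitx3 stands at 1.10 and 1600010M07Rik at -1.001, and the Tangerine against Red panel, whose values helped to choose the genes, is a description.

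1600010M07Rik was a low transcript, with 5 to 113 counts per library (median 25). Its lowest, median and highest levels were 0.315, 1.10 and 2.65 CPM in Control, 0.207, 0.539 and 1.27 in Red, and 0.332, 1.12 and 3.75 in Tangerine. It thus ran against Pitx3: only 2 of 12 Red livers lay above the Control median, and 11 of 12 Tangerine livers lay above the Red median. Of the Tangerine livers, 4 lay above every Control liver, and these (mouse numbers 215, 216, 217 and 242) were the 4 with the lowest Pitx3 of that diet. Red 133 had the lowest level of all, with 5 counts.

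The difference of Red from Control was -1.001 (SE 0.367) and did not pass the edgeR test (adjusted p = 0.218). It was 0.03 with the log2 ratio of Dbp to Arntl as a covariate. Tangerine against Control gave 0.48 (SE 0.338, adjusted p = 0.988). The 95% intervals ran from -1.72 to -0.28 for Red and from -0.19 to 1.14 for Tangerine. They are not adjusted for the number of genes tested, unlike the p-values, so an interval without 0 is no call. How reads in the shared stretch of 1600010M07Rik and Wee1 were assigned is not given in the sources used here, so its count may not be that of 1 transcript. Of its span of 152827 bases, 53950 lie outside all other annotated spans.

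Elovl3, which encodes an elongase of very long chain fatty acids and is a known rhythmic liver gene, meets Pitx3 tail to tail: its span (chr19:46131897-46135694, plus strand) overlaps that of Pitx3 by 10 bases. Elovl3 had a lowest, median and highest level of 69.6, 177 and 828 CPM in Control, 207, 382 and 710 in Red, and 67.8, 201 and 376 in Tangerine. Its lowest and highest livers were those of Pitx3 in Control (159 and 188) and in Red (170 and 156), and the highest was the same in Tangerine (195). In log2 CPM the 2 genes had a Pearson r of 0.956 in Control, 0.880 in Red and 0.890 in Tangerine (Spearman rho 0.874, 0.839 and 0.748, n = 12 each).

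The Pitx3 count was a small share of the Elovl3 count and not a fixed one. It ran from 0.596% in Control 136 to 3.17% in Red 156, with medians of 1.36% in Control, 2.07% in Red and 1.16% in Tangerine. Elovl3 differed less than Pitx3 in the fit: 0.80 for Red against Control (SE 0.332, adjusted p = 0.290) and -0.36 for Tangerine against Control (SE 0.331, adjusted p = 0.9999). The part that reads running past the end of Elovl3 may have in the Pitx3 count was not tested. Gbf1, the neighbour on the other side, lies 4182 bases away.

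**Figure D4:**
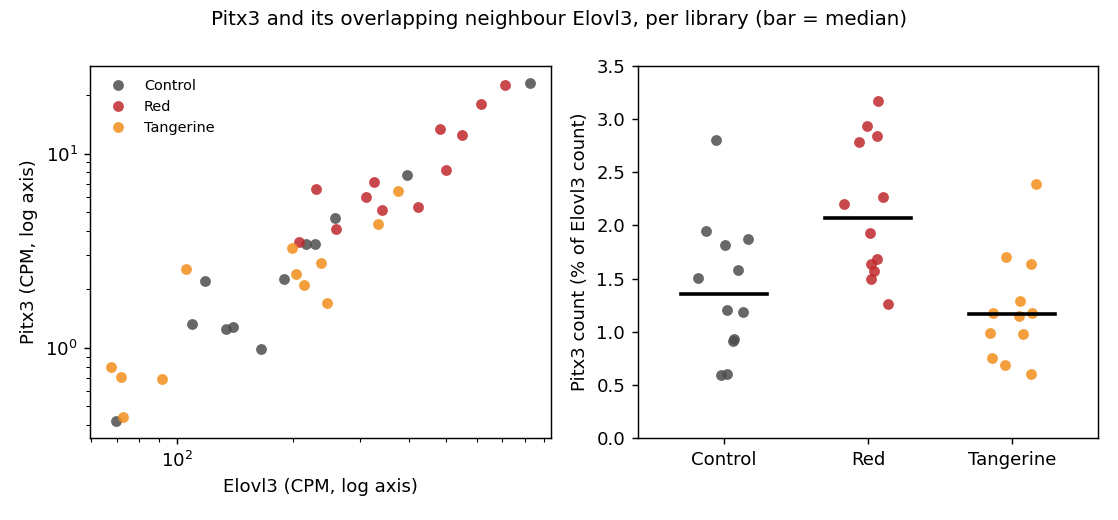
Left, Pitx3 against Elovl3 in 36 livers (both axes CPM, log scale). Right, the Pitx3 count as a percentage of the Elovl3 count by diet, with bars at the medians. Livers high in Elovl3 are high in Pitx3 in every diet, and the share runs from 0.596% to 3.17%.

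Pitx3 was high where Dbp was low and Arntl high, in each diet. Against Dbp its Pearson r was -0.832 in Control, -0.511 in Red and -0.941 in Tangerine (rho -0.811, -0.364 and -0.944, n = 12 each). Against Arntl it was 0.820, 0.585 and 0.909 (rho 0.811, 0.510 and 0.874). These points share libraries, depth and scaling, and the relation helped to choose the gene, so no test is given. Red had the weakest relation to both clock genes, and without the 2 libraries farthest from the Dbp median its r with Dbp was -0.234.

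1600010M07Rik had the opposite relations. With Dbp its r was 0.737 in Control, 0.229 in Red and 0.857 in Tangerine (rho 0.867, 0.119 and 0.881), and with Arntl it was -0.819, -0.413 and -0.928 (rho -0.713, -0.252 and -0.909). In Red the relation to Arntl rested on the 2 libraries farthest from the Arntl median: without them r was 0.333. Of the 12 relations of the 2 genes with Dbp and Arntl, 11 kept their sign when those 2 libraries were left out. Dbp and Arntl themselves had an r of -0.853 in Control, -0.955 in Red and -0.931 in Tangerine.

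Some single livers show this order and others do not. Control 188 had the lowest Dbp of its diet (1.84 CPM, against a median of 72.5), the highest Arntl (23.0 against 4.67) and the highest Pitx3 and Elovl3. Its 1600010M07Rik level, 0.461 CPM, was not the lowest of that diet, which was 0.315 in Control 189. Tangerine 216 had the highest Dbp of its diet (148 CPM, against a median of 68.7), the lowest Arntl (1.17 against 5.78) and the lowest Pitx3, with 1600010M07Rik at 3.74 CPM. Red livers had a median Dbp of 15.01 CPM and a median Arntl of 17.7. Red 202 had the lowest Dbp (3.64 CPM) and highest Arntl (29.3) of its diet, with Pitx3 at 18.1 CPM, below Red 156 at 22.5. Red 186 went the other way, with Dbp at 5.50 CPM and Arntl at 21.6 but Pitx3 at 4.08, against a Red median of 6.84.

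**Figure D5:**
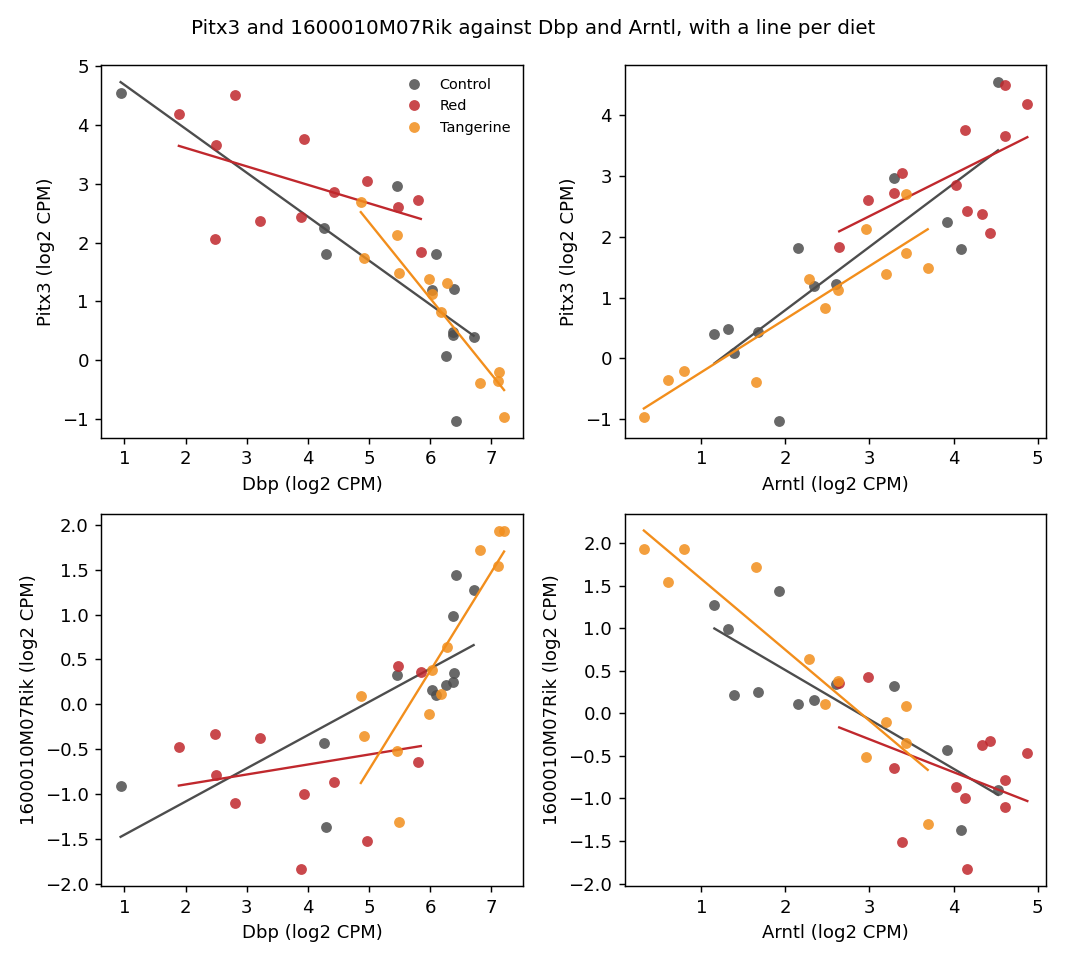
Pitx3 (top) and 1600010M07Rik (bottom) against Dbp (left) and Arntl (right), all in log2 CPM, with one point per liver and a least-squares line per diet. Lines for Pitx3 fall with Dbp and rise with Arntl in the 3 diets, and those for 1600010M07Rik do the reverse. The lines on Dbp are shallowest in Red, where the relations are weakest. In Red the r of 1600010M07Rik with Arntl was -0.413, and 0.333 without the 2 libraries farthest from the Arntl median.

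The slopes come from the same relation that helped to choose the genes, so they are given as a description. Per log2 unit of Dbp, Pitx3 moved by -0.70 (SE 0.100) in Control, -0.38 (SE 0.137) in Red and -1.30 (SE 0.272) in Tangerine. The slopes of 1600010M07Rik on Dbp were 0.44 (SE 0.121), 0.17 (SE 0.131) and 1.14 (SE 0.197). Both genes had their shallowest slope in Red and their steepest in Tangerine. Over all 14067 genes, the edgeR test for a difference in this slope among diets called 1 (0.00711%), which was neither Pitx3 nor 1600010M07Rik. In all, 993 genes had an unadjusted p under 0.05, and limma-voom called 104. The range of Dbp differed between the diets, so slopes were estimated over different stretches of it.

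Slopes on Arntl lay closer together. They were 1.15 (SE 0.162), 0.81 (SE 0.263) and 0.94 (SE 0.205) for Pitx3 and -0.62 (SE 0.142), -0.49 (SE 0.217) and -0.85 (SE 0.123) for 1600010M07Rik in Control, Red and Tangerine. In the same edgeR test for Arntl 0 genes (0%) passed, 431 had an unadjusted p under 0.05, and limma-voom called 1.

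After diet means were subtracted, Elovl3 was the gene most like Pitx3 over the 36 livers (r = 0.915 in log2 CPM). Also among the 5 highest were Arntl, at rank 3 (0.807), Chka, a choline kinase (0.802), and Lnx2 (0.780). The most opposed were Gm6157 (-0.821), Slc5a6, a sodium-dependent vitamin transporter (-0.804), and Tef (-0.770), with Dbp at rank 7 from the lowest of 14067 genes (-0.744). In all, 32 genes had an r above 0.7 with Pitx3 and 20 below -0.7.

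1600010M07Rik was most like Marveld1 (0.796), Nrg4, which encodes neuregulin 4 (0.791), Maco1 (0.786), Slc5a6 (0.757) and Lrp4 (0.752). It was most opposed to Ccdc162 (-0.819) and Dtx4 (-0.813). Arntl stood at rank 6 from the lowest (-0.792), whereas Dbp stood at rank 166 from the highest (0.568). Slc5a6 thus stood at opposite ends for the 2 genes, whose own r was -0.675. These values describe likeness over shared libraries and carry no test.

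Other genes of the clock were counted from fixed lists, which hold genes that take part in the same oscillation. None of the 28 tested genes in the 4 clock lists passed the edgeR test when either tomato diet was set against Control. For Red, 20 of the 28 had an unadjusted p under 0.05, DESeq2 called 1 and limma-voom 18, beside 1872, 164 and 1482 of all 14068 genes. For Tangerine these counts were 0, 0 and 0, beside 770, 6 and 2. Between the tomato diets, Tangerine against Red, 3 of 5 activators were lower (Npas2 by -2.51, Arntl by -1.46 and Clock by -0.46 in log2), and Rora, at 0.21, did not pass. Of 8 tested repressors, Nr1d2 was higher (0.75) and Cry1 lower (-0.47), while Bhlhe41 had the largest difference, 1.45, without passing. Of the PAR bZip factors and their opponent Nfil3, Dbp (1.84) and Tef (1.08) were higher, and Nfil3 stood at -0.66 without passing. Of 11 other outputs, Upp2, a uridine phosphorylase (1.40), and Gys2, the liver glycogen synthase (0.59), were higher, and Elovl3, at -1.16, did not pass. These 9 calls of 28 stand beside 1.71% of all genes, in the contrast that helped to choose the members, and nothing is read from them. Without Tangerine 216, 3 of the 28 passed (Gys2, Npas2 and Nr1d2), without Red 186 there were 6, and without both 0. Over all genes 89, 206 and 86 passed in these 3 settings. With mouse number as a covariate 0 of the 28 passed, and with no count filter 4 did, beside 32 and 136 of all genes.

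The medians of these lists in Tangerine against Red were -0.46 for activators, 0.52 for repressors, 0.73 for PAR bZip factors with Nfil3 and 0.45 for other outputs, beside -0.00455 over all genes tested. In Red against Control they were 0.28, -0.54, -0.63 and -0.39, beside -0.00474. In Tangerine against Control they were -0.18, 0.06, 0.10 and -0.26, beside -0.0118. Pitx3 and Elovl3 thus had the sign of the activators, and 1600010M07Rik that of the repressors, in both contrasts with Red.

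Around Wee1, 7 of 10 listed genes of the G2 to M transition were tested, and 0 passed edgeR, DESeq2 or limma-voom in any of the 3 contrasts, with 2, 1 and 2 at an unadjusted p under 0.05 in edgeR for Red against Control, Tangerine against Control and Tangerine against Red, beside 1872, 770 and 2127 of all 14068 genes. Without Red 186 the first of these was 0. In Tangerine against Red 0 of the 7 had a positive difference (median -0.38), with Cdkn1a, the CDK inhibitor p21, at -1.56; Cdkn1a passed when only the 2 diets compared were fitted and when Control 188 was left out. Proliferation markers were high in Red 186 (2175 counts over 6 genes) and in Tangerine 192 (416) against at most 207 elsewhere, and their part in these differences was not tested. Of 50 listed ubiquitin-specific proteases, Usp2 included, 40 were tested and 0 passed edgeR in any contrast, with a median of -0.05 in Tangerine against Red. The edgeR p before adjustment was under 0.05 for 4, 3 and 8 of them in Red against Control, Tangerine against Control and Tangerine against Red; limma-voom called 5 in the first and DESeq2 0 in each. These counts stand beside the same totals over all genes, and limma-voom's beside its 1482. Usp2 was the only one listed at 0 in all libraries, and among the tested members Usp28 stood highest, at 0.10, and Usp11 lowest, at -0.40.

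Genes tied to Pitx3 in other tissues were counted as well. Lens markers summed to at most 1 count in any library, with Cryba1 and Crygd at 0. Of 8 partners and targets of Pitx3 in dopamine neurons, Slc6a3, Drd2 and En1 were at 0 in all libraries and 3 were tested. Of the tested genes, Aldh1a1, a retinaldehyde dehydrogenase, was abundant, with medians of 838 CPM in Control, 817 in Red and 797 in Tangerine, and differed by 0.02 in Tangerine against Red. In that contrast Slc18a2, a vesicular monoamine transporter, stood at 0.13 and Nr4a2, an orphan nuclear receptor, at -0.03. Against Control, Nr4a2 stood at -0.51 in Red and -0.54 in Tangerine, Slc18a2 at -0.11 and 0.03, and Aldh1a1 at 0.02 and 0.04. None of these differences passed the edgeR test. Skeletal muscle markers were high in Red 186, whose Pitx3 level, 4.08 CPM, was the second lowest of the Red livers. Neuron markers summed to 206 to 560 counts per library, with Snap25 and Tubb3 at 0.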

How the data were processed

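Liver RNA was made into libraries with a directional kit, per the labels' protocols. The authors deposited raw read counts per Ensembl gene. The submitters' processing notes name FastQC, Trimmomatic, edgeR and build GRCm38.p6. The aligner, counting program, annotation release and strand setting are not given in the sources used here. Symbols and spans came from GENCODE M21 by identifier (53620 of 53715 matched), and promoter windows from RefSeq (GRCm38.p6).

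Groups were taken from the labels. Nothing there says more than that samples are separate mice by number, so p-values measure the spread between these samples. The smallest chi-square per degree of freedom among the 198 pairs of one diet was 13.7, so all libraries were kept as separate samples.

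Genes were kept by filterByExpr (count 10, total 15, share 0.7), scaled by TMM, and tested with edgeR 4.0.16 in R 4.3.3 (quasi-likelihood, robust, 36 libraries, threshold 0.05 after Benjamini-Hochberg adjustment). CPM means counts scaled by edgeR to a common effective library size. Log2 CPM used a prior count of 2. The floor of 3 counts covers counting error only. Slopes came from an interaction of diet with the clock gene; the members' p-values from it are not given, since the relation helped to choose them. limma 3.58.1 and DESeq2 1.42.0 were alternatives. Scripts were tested on simulated data.

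The members and lists were chosen with earlier results of these data known. Named were the members, Dbp, Arntl, the 5 most and 3 least correlated genes, neighbours, and in each list the largest difference of either sign in Tangerine against Red; other list genes named had passed that contrast or were at 0, and these and Aldh1a1 were picked after their values were seen. Some genes that this rule names are not reported here.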

Additional observations from a re-analysis of the deposited data

How the results depend on the processing

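No paired analysis was possible because no mouse number occurs in more than 1 diet. Neither gene passed in Tangerine against Control under any setting run, where log2 differences ran from -0.91 to -0.17 for Pitx3 and from 0.08 to 0.48 for 1600010M07Rik; DESeq2 gave neither an adjusted p there. In Red against Control, 1600010M07Rik passed under none of 12 settings, and Pitx3 passed under limma-voom (1.85) and without Control 188 (1.82).

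Tangerine against Red helped to choose both genes, so passing the threshold there is no support for them. In that contrast both kept their sign, and in 5 of 12 settings they did not pass. Pitx3 stood at -1.997 with no count filter, -1.90 with mouse number as a covariate, -0.58 with Dbp minus Arntl, -1.98 without Red 186 and Tangerine 216, and -1.90 without Tangerine 216. For 1600010M07Rik the values were 1.48, 1.14, 0.11, 1.34 and 1.32. With no filter more genes were tested. With Dbp minus Arntl as a covariate, clock genes that changed sign included Arntl (0.0379), Cry1 (0.0103) and Tef (-0.0384), which had passed without it. Bhlhe41 and Nfil3, which had not passed without that covariate, also changed sign. Arntl is itself a term of the covariate, so nothing is read from its own value there. For the other settings the cause was not tested.

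Genes past the threshold in Red against Control numbered 164 with DESeq2, 1482 with limma-voom, 4 with Dbp minus Arntl, 53 without both libraries, 54 without Red 186, 32 without Tangerine 216 and 31 without Control 188. In Tangerine against Control they numbered 6 with DESeq2 and 1 with mouse number. In Tangerine against Red they numbered 136 with no filter, 391 with DESeq2, 732 with limma-voom, 32 with mouse number, 0 with Dbp minus Arntl (1619 unadjusted), 86 without both libraries and 89 without Tangerine 216. Without the 2 farthest libraries, r of 1600010M07Rik with Dbp in Tangerine was 0.965, and with Arntl in Red 0.333. Removing single libraries other than Red 186, Tangerine 216 and Control 188 was not run. At 5 to 113 counts, 1600010M07Rik is limited by depth. The settings that drop 1 of these 3 libraries were chosen after seeing the data.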
